A study of Sus scrofa with 10 samples.

Results

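Chaperones and protein folding enzymes were followed here as 73 genes, of 6765 genes that the array annotation names with a single symbol. They were chosen by symbol and not by measured value: the HSPA, HSPB, HSPD, HSPE and HSPH heat shock proteins, the DNAJA, DNAJB and DNAJC J proteins, the CCT chaperonin subunits with TCP1, the PDIA disulfide isomerases, the FKBP and PPI prolyl isomerases, and the lectin chaperones CALR and CANX. Array control probe sets were left out, 115 probe sets matched, and each gene was read from its brightest probe set, judged by the mean of the 10 arrays. By the place assigned to each protein, 45 of the genes were grouped under the cytosol or nucleus, 18 under the endoplasmic reticulum (ER) and 8 under mitochondria. The remaining pair, DNAJC5 and DNAJC6, was grouped with vesicles. The places of DNAJC14, DNAJB14, FKBP8 and HSPB11 were assigned from general knowledge and are less sure.

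The samples were porcine fetal fibroblasts grown from Danish Landrace/Yorkshire x Duroc fetal tissue of day 24, without the head, and divided with magnetic beads by an antibody against SSEA-1, a surface carbohydrate. Total RNA from 5 SSEA1+ fractions and 5 SSEA1- fractions was hybridised to Affymetrix porcine arrays. Each fraction went on its own array, and replicates of either fraction are numbered 1 to 5, described by the submitters as biological replicates. Neither fraction received any other treatment that the labels name, both share the same culture medium, and the labels call the source a cell line without giving the number of fetuses behind it. Values are log2 signals, and since each probe set binds with its own strength, the signal of one gene says nothing of its level relative to another gene.

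Chaperones bind unfolded protein and keep it from clumping until it folds. HSP70 proteins do so in cycles of ATP use that J proteins start and nucleotide exchange factors end, while chaperonins such as CCT in the cytosol and HSPD1 with HSPE1 in mitochondria enclose the client in a chamber. In the ER, where a fibroblast folds the collagen and other matrix proteins that it secretes, disulfide isomerases set the disulfide bonds, prolyl isomerases turn the proline bonds, and the lectin chaperones hold proteins that carry sugar chains.

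The arrays were alike: between arrays of the same fraction the signals correlated at 0.991 to 0.996 over probe sets, and between arrays of different fractions at 0.987 to 0.995. Of 11 fibroblast markers 9 were measured, and all 9 lay above the background level of 0.352, the 95th percentile of controls for sequences that should be missing, on every array. Their summed signal was 63.3 to 65.0 in SSEA1+ and 62.6 to 64.4 in SSEA1- fractions, a sum that covers unlike members. COL1A2 averaged 6.13 ± 0.15 in SSEA1+ and 4.94 ± 0.32 in SSEA1-, THY1 8.347 ± 0.13 in SSEA1+ and 8.003 ± 0.20 in SSEA1-, and FN1 10.52 ± 0.14 in SSEA1+ and 10.65 ± 0.11 in SSEA1-, while COL3A1 was close to background at 0.75 ± 0.13 in SSEA1+ and 0.68 ± 0.10 in SSEA1- (SD, n = 5 each). Summed markers of leukocytes, none of 4 above background on every array, were 0.968 to 1.65 in SSEA1+ and 0.717 to 1.34 in SSEA1- fractions, and those of endothelium 1.20 to 2.28 in SSEA1+ and 1.60 to 1.99 in SSEA1- fractions. Epithelial markers were present, 4 of 6 above background on every array, with sums of 8.83 to 11.8 in SSEA1+ and 7.72 to 11.9 in SSEA1- fractions. Of them KRT8 averaged 5.42 ± 0.58 in SSEA1+ and 5.47 ± 0.76 in SSEA1-, KRT19 1.503 ± 0.33 in SSEA1+ and 1.1 ± 0.26 in SSEA1-, and EPCAM 0.44 ± 0.09 in SSEA1+ and 0.20 ± 0.15 in SSEA1- (SD, n = 5 each). KRT18 averaged 1.45 ± 0.28 in SSEA1+ and 1.54 ± 0.59 in SSEA1-, and CLDN4 1.09 ± 0.14 in SSEA1+ and 0.85 ± 0.19 in SSEA1-. CDH1, above background on 8 of 10 arrays, averaged 0.53 ± 0.09 in SSEA1+ and 0.35 ± 0.10 in SSEA1- (SD, n = 5 each). Of the 2 measured neural markers, STMN2 averaged 6.22 in SSEA1+ and 6.16 in SSEA1-, and SOX10 0.72 in SSEA1+ and 0.80 in SSEA1-. The erythroid HBB averaged 4.38 in SSEA1+ and 4.54 in SSEA1-. The part of such cells in the results was not tested. A technical measure also differed: the poly-A controls, which are RNAs added before labelling, stood 0.82 higher relative to the hybridisation controls in SSEA1+ arrays (-3.20 ± 0.32 in SSEA1+ against -4.02 ± 0.25 in SSEA1-, SD, n = 5 each; exact two-sided permutation p = 0.00794, the smallest that 5 against 5 unpaired arrays can give). The permutations left the replicate numbers out, and no test within pairs of equal number was run.

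The comparison asked how the folding genes differ between SSEA1+ and SSEA1- fractions. Differences were small: 1 of the 73 genes reached 1.5-fold, and the median size was 1.12-fold. The main limma fit left the replicate numbers out, and its p-values were adjusted over all 24123 probe sets. At an adjusted p under 0.05, 2 members rose and 5 fell in the SSEA1+ fraction. Those are 2.74% and 6.85% of the 73, where 3.21% of all 6765 genes rose and 4.18% fell, or 7.39% in either direction. The share that rose is thus near the background, and the share that fell is above it by few genes. The 2 that rose were DNAJC5 and HSPA12A, and the 5 that fell were HSPH1, DNAJB6, HSPA9, TCP1 and FKBP5. The remaining 66 did not pass in this fit, among them all 18 ER genes. Of the 73 genes, 70 were above background on every array, and the others were HSPB3, HSPA6 and FKBP6.

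Most members nonetheless read lower. The SSEA1+ mean was the lower one for 53 of 73 genes, or 72.6%, against 52.4% of all genes, and the median difference was -0.09 on the log2 scale against -0.01 over all genes. After repeated quantile normalization and after cyclic loess 48 members were lower in each case, or 65.8%, against 51.7% and 51.5% of all genes. The same sign in all 5 pairs of equally numbered arrays was seen for 29 members that were lower and 7 that were higher, or 39.7% and 9.59%, where 16.4% and 12.5% of all genes had it. The fractions did not overlap for 2 higher members, DNAJC5 and HSPB1, and for 7 lower ones, TCP1, HSPH1, DNAJB6, HSPA8, FKBP15, HSPA5 and CANX. These are 2.74% and 9.59% of the members, beside 3.96% and 4.55% of all genes.

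With the replicate number as a block in limma, which takes out what both fractions of a replicate share, 6 members rose and 12 fell. These are 8.22% and 16.4% of the members, where 5.65% and 8.62% of all genes were called, 14.3% in either direction. The 11 added calls were FKBP1A, HSPB3, HSPB6 and HSPB7 among rises and CCT4, CCT8, HSPA4, DNAJC9, DNAJC24, PPIG and DNAJB14 among falls, and each of the 7 calls above held. With the poly-A level of each array as covariate no member passed in limma. How many of all genes passed that fit was not counted, so this is no result about the members. In it the 7 genes called by the main fit kept their sign, with larger standard errors. HSPH1 and TCP1 each differed by -0.36, FKBP5 by -0.33, HSPA9 by -0.24 and DNAJB6 by -0.19. HSPA12A differed by 0.53 and DNAJC5 by 0.31. No SSEA1+ array had a poly-A level as low as that of any SSEA1- array, so that fit extrapolates, and the part of the controls in the results cannot be told apart from the fractions.

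**Figure D1:**
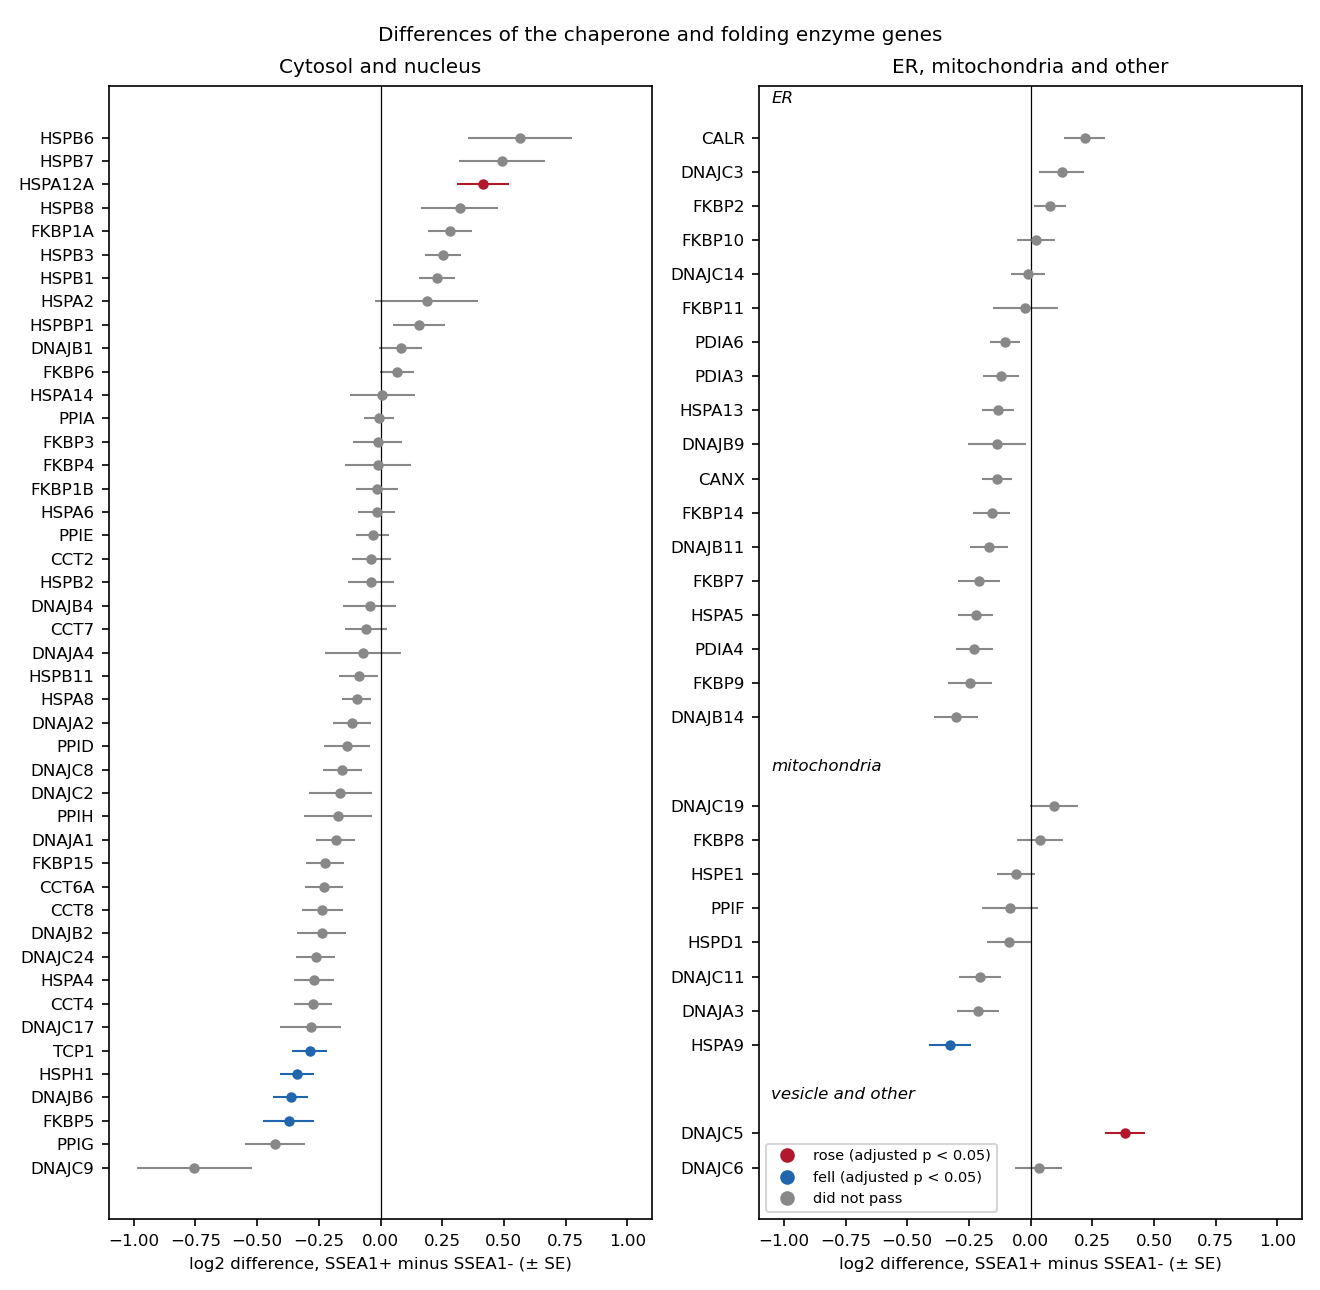
Log2 difference (SSEA1+ minus SSEA1-, with its standard error) of each of the 73 genes, ordered by size within the cytosol and nucleus (left) and the ER, mitochondria and vesicles (right). Red points rose and blue points fell at an adjusted p under 0.05, and grey points did not pass; most points lie left of 0, with DNAJC9 at -0.75 the lowest and HSPB6 at 0.56 the highest.

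Among cytosolic and nuclear genes, 1 of 45 rose, 4 fell and 40 did not pass. The calls are 2.22% and 8.89% of the 45, beside 3.21% and 4.18% of all genes. The SSEA1+ mean was lower for 33 of the 45, or 73.3%, against 52.4% of all genes. The median difference was -0.07, against -0.01 over all genes. HSPH1, a nucleotide exchange factor of HSP70 and a heat-inducible protein, read 7.69, 7.86, 7.76, 7.82 and 7.70 in SSEA1+ replicates 1 to 5 and 7.98, 8.05, 8.20, 8.22 and 8.07 in SSEA1- replicates 1 to 5. Every SSEA1+ array was below every SSEA1- array. HSPH1 fell by 0.34 ± 0.07 (SE, adjusted p = 0.0144 in limma) and kept its call without any single array. Its relative HSPA4, also an exchange factor, read 7.06 ± 0.09 in SSEA1+ and 7.33 ± 0.13 in SSEA1- (SD, n = 5 each) and did not pass (adjusted p = 0.0628, or 0.0349 with the replicate block). HSPBP1, which strips nucleotide from HSP70 by another fold, read 3.18 in SSEA1+ and 3.03 in SSEA1- without passing.

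The HSP70 proteins themselves were mixed. HSPA8, the constitutive HSP70 of the cytosol, read 9.56, 9.64, 9.57, 9.55 and 9.57 in SSEA1+ and 9.71, 9.70, 9.64, 9.68 and 9.64 in SSEA1- fractions. The fractions lay just apart, yet the difference of -0.10 ± 0.06 (SE) did not pass in limma (adjusted p = 0.398). HSPA12A, a distant relative of HSP70, read 1.67, 1.41, 1.20, 1.41 and 1.34 in SSEA1+ replicates 1 to 5, and 0.84, 1.15, 1.25, 0.87 and 0.85 in SSEA1- replicates. It rose by 0.41 ± 0.10 (SE, adjusted p = 0.0351 in limma), although replicate 3 went the other way and SSEA1- replicate 3 overlapped the SSEA1+ range. That call ended in 6 of 10 leave-outs of a single array (SSEA1+ replicate 1, 2 or 5 and SSEA1- replicate 1, 4 or 5), at adjusted p-values up to 0.0899. HSPA2, known for its role in male germ cells, differed by 0.19 ± 0.21 (SE), HSPA14, found on ribosomes, by 0.01 ± 0.13 (SE), and HSPA6, a strictly stress-inducible HSP70, was above background on 1 of 10 arrays.

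J proteins hand clients to HSP70 and start its ATP use. Of the 12 in the cytosol and nucleus 11 read lower, or 91.7%, against 52.4% of all genes, with a median of -0.17. The 11 were also lower under both other scalings. In limma 1 of the 12 fell, or 8.33%, beside 4.18% of all genes. DNAJB6, which holds back aggregation of polyglutamine proteins, read 6.20, 6.24, 5.96, 6.05 and 6.23 in SSEA1+ and 6.50, 6.55, 6.45, 6.49 and 6.51 in SSEA1- fractions. The SSEA1- arrays sat close together between 6.45 and 6.55, and all SSEA1+ arrays lay below them. DNAJB6 fell by 0.36 ± 0.07 (SE, adjusted p = 0.011 in limma), a call that held without any single array. Averaged over its probe sets, however, the difference was -0.21 and did not pass (adjusted p = 0.0686).

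DNAJC9, a J protein that also chaperones histones, showed the greatest difference of all 73 genes. It read 2.56, 1.95, 2.68, 2.71 and 2.44 in SSEA1+ replicates 1 to 5 and 3.06, 2.32, 3.66, 3.75 and 3.31 in SSEA1- replicates. Within each pair the SSEA1+ array was lower, with differences from -1.04 to -0.37, and both replicate 2 arrays were the lowest of their fraction. The difference of -0.75 ± 0.23 (SE) did not pass (adjusted p = 0.0758), whereas with the replicate block the adjusted p was 0.00162, and without SSEA1- replicate 2 it was 0.00625 at -0.98. With the poly-A covariate it was -1.35 ± 0.41 (SE, adjusted p = 0.209).

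The other J proteins of these compartments were closer. DNAJA1, the partner of HSPA8, read 7.92 ± 0.08 in SSEA1+ and 8.10 ± 0.14 in SSEA1- (SD, n = 5 each; adjusted p = 0.216). DNAJB1, the heat-inducible J protein, was the single one with a higher mean, 4.93 ± 0.08 in SSEA1+ against 4.85 ± 0.17 in SSEA1- fractions (SD, n = 5 each), and did not pass. DNAJC24, which serves diphthamide synthesis, read 4.29 in SSEA1+ and 4.55 in SSEA1- and did not pass either (adjusted p = 0.0702, or 0.0395 if blocked by replicate).

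**Figure D2:**
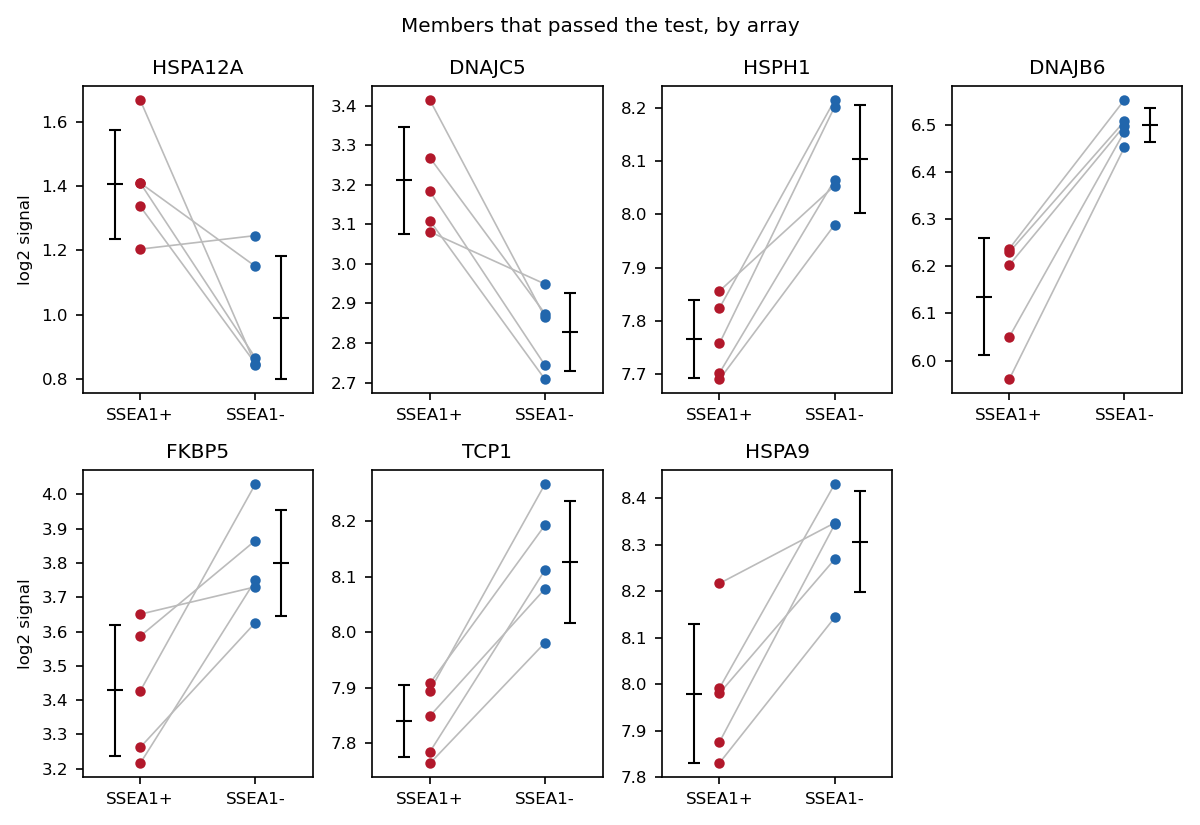
Log2 signal of the 7 genes that passed, by array, with SSEA1+ arrays (red) left of SSEA1- arrays (blue), grey lines joining equal replicate numbers, and bars for mean and SD (n = 5 each). Each panel has its own axis, which does not start at 0; HSPA12A and DNAJC5 are higher in SSEA1+ and the other 5 lower, with overlap between fractions in HSPA12A, FKBP5 and HSPA9.

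The CCT ring folds actin and tubulin in the cytosol, and 6 of its subunits were measured. All 6 read lower in the SSEA1+ fraction under all 3 scalings, with a median difference of -0.23. In the deposited values 52.4% of all genes read lower. Of the 6, 1 fell in limma, or 16.7%, beside 4.18% of all genes. TCP1, the subunit that gave the ring its name, read 7.89, 7.76, 7.78, 7.91 and 7.85 in SSEA1+ and 8.27, 7.98, 8.11, 8.19 and 8.08 in SSEA1- fractions. No SSEA1+ array reached the lowest SSEA1- array, and TCP1 fell by 0.29 ± 0.07 (SE, adjusted p = 0.032 in limma). The margin to the threshold was small: the call ended in 8 of 10 leave-outs, all but those of SSEA1+ replicate 4 and SSEA1- replicate 2, at adjusted p-values up to 0.0742.

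CCT4 read 8.68, 8.50, 8.47, 8.67 and 8.62 in SSEA1+ and 8.87, 8.67, 8.86, 9.02 and 8.87 in SSEA1- fractions. Only the SSEA1- array of replicate 2 reached down into the SSEA1+ range. Its difference was -0.27 ± 0.08 (SE, adjusted p = 0.0576, or 0.0265 with the replicate block), and that of CCT8 was -0.24 ± 0.08 (SE, adjusted p = 0.116, or 0.046 with the block). CCT6A differed by -0.23 ± 0.08 (SE, adjusted p = 0.104). CCT2 and CCT7 differed by -0.04 ± 0.08 and -0.06 ± 0.09 (SE), and whether the subunits differ from each other was not tested.

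**Figure D3:**
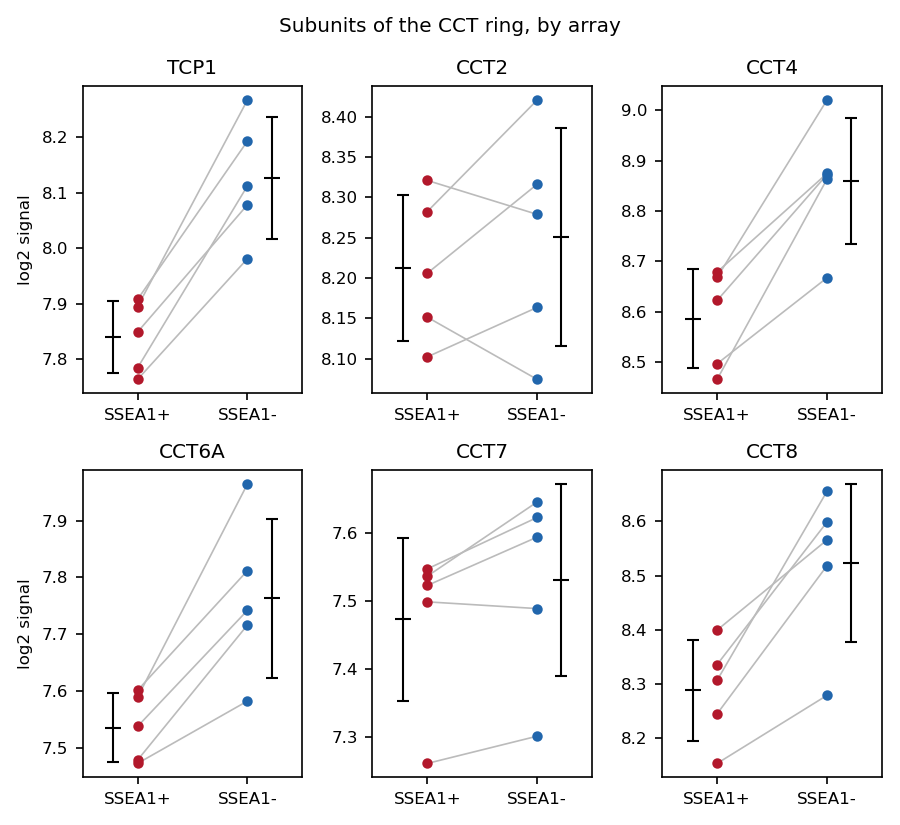
Log2 signal of the 6 measured CCT subunits by array, SSEA1+ (red) left of SSEA1- (blue), grey lines joining equal replicate numbers and bars for mean and SD (n = 5 each). TCP1 separates the fractions, CCT4, CCT6A and CCT8 are lower within all 5 pairs, and CCT2 and CCT7 overlap widely.

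Small heat shock proteins, which hold unfolding proteins without using ATP, mostly read higher. Of 7 measured, 5 were higher in SSEA1+, also under both other scalings, and 28.6% read lower, against 52.4% of all genes. HSPB11, which read lower, was counted by its symbol alone, and its action as a small heat shock protein was not checked. None of the 7 passed in limma, where 7.39% of all genes did. The family's median difference was 0.25, or -0.12 with the poly-A covariate. The 0.25 is the value of HSPB3, which is also among the 5 higher genes. Its signals were near background, and all its SSEA1- arrays lay below the level of 0.352. The genes next to HSPB3 in order of difference were HSPB1 at 0.23 and HSPB8 at 0.32. HSPB1, the broadly made member that also binds actin filaments, read 7.01, 6.81, 7.03, 6.83 and 6.84 in SSEA1+ and 6.75, 6.63, 6.71, 6.75 and 6.56 in SSEA1- fractions. All SSEA1+ arrays were above all SSEA1- arrays, by a narrow gap, and the difference was 0.23 ± 0.07 (SE, adjusted p = 0.0829, or 0.0533 with the replicate block).

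HSPB6, a muscle-enriched member, read 2.07, 2.93, 3.21, 2.22 and 2.17 in SSEA1+ replicates 1 to 5 and 2.01, 2.33, 2.01, 1.87 and 1.56 in SSEA1- replicates. HSPB7, of heart and skeletal muscle, read 2.41, 2.86, 2.96, 2.09 and 2.10 in SSEA1+ replicates and 1.95, 1.95, 2.22, 2.20 and 1.63 in SSEA1- replicates. For both genes SSEA1+ replicates 2 and 3 were the highest arrays of all. SSEA1+ replicate 1 of HSPB7, at 2.41, was also above every SSEA1- array, and the other SSEA1+ arrays lay within the SSEA1- range. The differences in limma were 0.56 ± 0.21 for HSPB6 (SE, adjusted p = 0.147, or 0.021 with the block) and 0.49 ± 0.17 for HSPB7 (SE, adjusted p = 0.123, or 0.0288 with the block).

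HSPB8, which works with BAG3 in removing damaged filaments, gave 2.47 ± 0.24 in SSEA1+ and 2.15 ± 0.34 in SSEA1- (SD, n = 5 each; adjusted p = 0.274). HSPB3, expressed in muscle, was above background on 2 of 10 arrays only, at 0.36 ± 0.07 in SSEA1+ and 0.11 ± 0.12 in SSEA1- (SD, n = 5 each), so its rise under the block is one of signals near background. With the poly-A covariate HSPB6 read -0.00 ± 0.36 and HSPB7 -0.18 ± 0.25 (SE). Muscle markers were present beside them: DES averaged 7.20 ± 0.35 in SSEA1+ and 6.92 ± 0.50 in SSEA1- fractions and ACTC1 5.86 ± 0.27 in SSEA1+ and 5.70 ± 0.46 in SSEA1- (SD, n = 5 each), TNNT2 was near 0 in both, and the summed level of the 3 measured of 5 muscle markers was 12.6 to 13.6 in SSEA1+ and 11.1 to 13.7 in SSEA1- fractions. The part of muscle-type cells in the small heat shock protein values was not tested, and in sorted bulk samples more cells of a type and more RNA per cell cannot be told apart.

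**Figure D4:**
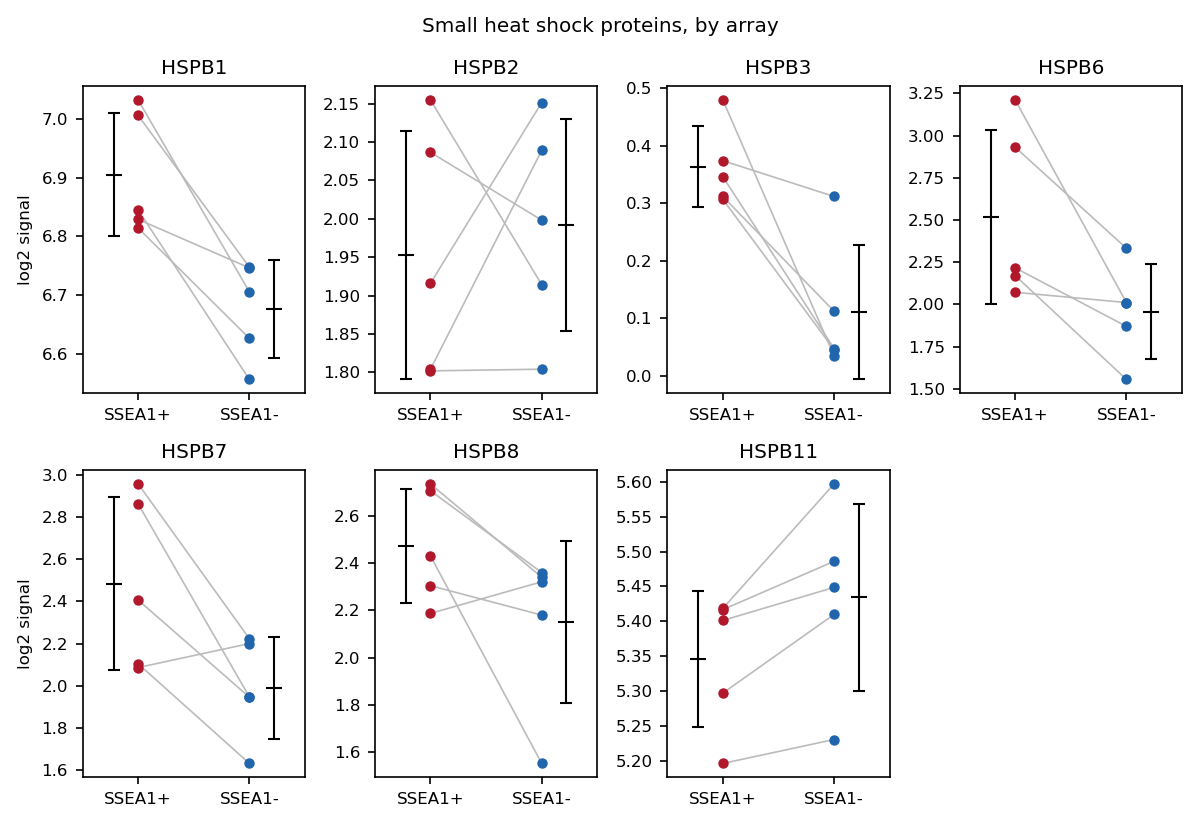
Log2 signal of the 7 measured genes with HSPB symbols by array, SSEA1+ (red) left of SSEA1- (blue), grey lines joining equal replicate numbers and bars for mean and SD (n = 5 each). HSPB1 separates the fractions, HSPB6 and HSPB7 spread most among SSEA1+ arrays, and HSPB2 and HSPB11 show no higher mean in SSEA1+.

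Prolyl isomerases of the cytosol and nucleus turn proline bonds or bind steroid receptors and immunosuppressants. FKBP5, a glucocorticoid-induced cochaperone of HSP90 that dampens glucocorticoid receptor binding, read 3.26, 3.22, 3.59, 3.65 and 3.43 in SSEA1+ and 3.63, 3.75, 3.87, 3.73 and 4.03 in SSEA1- fractions. Each pair was lower in SSEA1+, with a slight overlap between fractions. FKBP5 fell by 0.37 ± 0.10 (SE, adjusted p = 0.0482 in limma), at the edge of the threshold: the adjusted p was 0.0811 after repeated quantile normalization, 0.0773 after cyclic loess, 0.0509 with trended, robust variances and up to 0.118 in the 8 of 10 leave-outs that ended the call, all but those of SSEA1+ replicate 4 and SSEA1- replicate 1. Its second probe set read 0.74 in SSEA1+ and 0.90 in SSEA1- without passing.

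FKBP4, its counterpart on the steroid receptor complex, read 2.16 ± 0.26 in SSEA1+ and 2.17 ± 0.23 in SSEA1- (SD, n = 5 each). FKBP1A, the FK506-binding protein, read 4.34, 4.06, 4.33, 4.11 and 4.43 in SSEA1+ and 4.08, 3.77, 4.04, 4.04 and 3.92 in SSEA1- fractions. It was higher in all 5 pairs, by 0.28 ± 0.09 (SE, adjusted p = 0.083, or 0.0358 with the replicate block), and by 0.08 ± 0.16 (SE) with the poly-A covariate. PPIA, the abundant cyclophilin that binds cyclosporin, read 10.21 ± 0.03 in SSEA1+ and 10.21 ± 0.06 in SSEA1- (SD, n = 5 each), a difference of -0.00 ± 0.06 (SE). PPIG, a nuclear cyclophilin with a domain rich in arginine and serine, read 5.10 ± 0.27 in SSEA1+ and 5.52 ± 0.16 in SSEA1- (SD, n = 5 each; adjusted p = 0.0559, or 0.0169 with the block). FKBP6 was above background on no array.

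In the ER, none of the 18 genes rose or fell in limma, where 3.21% and 4.18% of all genes did. With the replicate block 1 of the 18 fell, or 5.56%, beside 8.62% of all genes. The SSEA1+ mean was lower for 14 of 18, or 77.8%, against 52.4% of all genes, with a median of -0.13. HSPA5 (BiP), the HSP70 of the ER, read 9.25, 9.43, 9.28, 9.51 and 9.44 in SSEA1+ and 9.59, 9.66, 9.59, 9.51 and 9.66 in SSEA1- fractions. The fractions did not overlap, but only just, since both arrays of replicate 4 read 9.51. The difference was -0.22 ± 0.07 (SE, adjusted p = 0.0866), passed after repeated quantile normalization at 0.0476 and with trended, robust variances at 0.0254, and was -0.02 ± 0.12 (SE) with the poly-A covariate.

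Of 5 J proteins placed in the ER or its membrane 4 had lower means, and none passed. DNAJB11, a partner of BiP, read 5.65 ± 0.08 in SSEA1+ and 5.82 ± 0.13 in SSEA1-, and DNAJB9, an inducible target of the unfolded protein response, 6.03 ± 0.19 in SSEA1+ and 6.16 ± 0.23 in SSEA1- (SD, n = 5 each). DNAJB14, an ER membrane protein whose J domain faces the cytosol, read 5.10 ± 0.14 in SSEA1+ and 5.40 ± 0.15 in SSEA1- (SD, n = 5 each) and did not pass (adjusted p = 0.0681, or 0.0358 with the block). DNAJC3, which restrains the kinase PERK, had a higher mean at 2.56 in SSEA1+ against 2.43 in SSEA1-, without passing.

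The 3 measured disulfide isomerases were all lower and did not pass. PDIA4 read 6.82, 6.87, 6.92, 7.14 and 6.96 in SSEA1+ and 7.16, 7.08, 7.15, 7.19 and 7.27 in SSEA1- fractions. It was lower in all 5 pairs, by 0.23 on average (adjusted p = 0.0923). PDIA3, which works with the lectin chaperones on glycoproteins, differed by -0.12 ± 0.07 and PDIA6 by -0.10 ± 0.06 (SE).

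The lectin chaperones pointed in opposite directions. CALR, the soluble one, read 5.25, 5.33, 5.57, 5.34 and 5.14 in SSEA1+ and 5.10, 5.21, 5.14, 5.06 and 5.03 in SSEA1- fractions, higher in all 5 pairs. CANX, its membrane-bound relative, read 7.98, 8.10, 8.12, 8.11 and 8.01 in SSEA1+ and 8.16, 8.23, 8.21, 8.21 and 8.20 in SSEA1- fractions, without overlap. Neither difference, 0.22 ± 0.08 for CALR (SE, adjusted p = 0.145) and -0.14 ± 0.06 for CANX (SE, adjusted p = 0.222), passed in limma, and whether CALR and CANX differ from each other was not tested.

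The ER prolyl isomerases FKBP10 and FKBP2 differed by 0.02 ± 0.08 and 0.08 ± 0.06, and FKBP9 and FKBP14 by -0.24 ± 0.09 and -0.16 ± 0.08 (SE). FKBP10 and FKBP14 are known for their part in collagen folding. SERPINH1 (HSP47), the collagen-specific chaperone outside the symbol rule, read 7.23 ± 0.11 in SSEA1+ and 7.31 ± 0.09 in SSEA1- (SD, n = 5 each; adjusted p = 0.646), so no difference was shown for it.

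In mitochondria, 1 of 8 genes fell, or 12.5%, beside 4.18% of all genes, a share that rests on HSPA9 alone. The SSEA1+ mean was lower for 6 of 8, or 75%, against 52.4% of all genes. The median was -0.09, against -0.01 over all genes. HSPA9 (mortalin), the mitochondrial HSP70 that also pulls imported proteins through the inner membrane, read 7.98, 7.83, 7.88, 8.22 and 7.99 in SSEA1+ and 8.27, 8.14, 8.34, 8.35 and 8.43 in SSEA1- fractions. The pairs all ran one way, and SSEA1+ replicate 4 was above the lowest SSEA1- array, that of replicate 2. HSPA9 fell by 0.33 ± 0.08 (SE, adjusted p = 0.0385 in limma), a call that ended in 8 of 10 leave-outs, all but those of SSEA1+ replicate 4 and SSEA1- replicate 2, at up to 0.097.

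Neither part of the chaperonin that receives clients from it passed. HSPD1 (HSP60) read 8.84, 8.69, 8.65, 9.00 and 8.87 in SSEA1+ and 8.95, 8.75, 8.83, 8.85 and 9.12 in SSEA1- fractions, and its lid HSPE1 (HSP10) averaged 9.14 ± 0.05 in SSEA1+ and 9.20 ± 0.14 in SSEA1- (SD, n = 5 each). The fractions overlapped for both genes, with differences of -0.09 ± 0.09 and -0.06 ± 0.08 (SE). DNAJA3, the J protein of HSPA9, differed by -0.21 ± 0.08 (SE, adjusted p = 0.174) and DNAJC11, of the inner membrane organising complex, by -0.21 ± 0.08 (SE, adjusted p = 0.189), both lower in all 5 pairs. PPIF (cyclophilin D), a regulator of the permeability pore, read 1.69 ± 0.17 in SSEA1+ and 1.78 ± 0.22 in SSEA1- (SD, n = 5 each).

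The compartments were also followed array by array. Relative to each gene's mean over the 10 arrays, the median cytosolic and nuclear gene read between -0.12 and -0.01 in SSEA1+ and between -0.07 and 0.12 in SSEA1- arrays. For ER genes the ranges were -0.15 to 0.04 in SSEA1+ and 0.02 to 0.07 in SSEA1- arrays, and for mitochondrial genes -0.19 to 0.01 in SSEA1+ and -0.12 to 0.23 in SSEA1- arrays. In each compartment the SSEA1+ array was the lower one in 5 of 5 pairs, and replicate 2 was the lowest array of both fractions for the cytosolic and mitochondrial groups. These medians over chosen genes are a description and carry no test. The array medians of all genes were not worked out in this way, and the groups share the same 10 arrays.

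Outside these compartments, DNAJC5 (cysteine string protein), the J protein of secretory vesicles that keeps SNARE proteins folded, read 3.41, 3.11, 3.18, 3.08 and 3.27 in SSEA1+ and 2.86, 2.71, 2.74, 2.95 and 2.87 in SSEA1- fractions. All SSEA1+ arrays were above all SSEA1- arrays. DNAJC5 rose by 0.38 ± 0.08 (SE, adjusted p = 0.0148 in limma) and kept its call without any single array. DNAJC6 (auxilin), which uncoats clathrin vesicles in neurons, was close to background at 0.61 in SSEA1+ and 0.58 in SSEA1-.

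For 26 members the array holds more than one probe set, 42 further ones in all. Of these 2 rose and 7 fell, or 4.76% and 16.7%, where 2.81% and 4.12% of all such probe sets were called. Second probe sets had the sign of the brightest one for 19 of 26 genes. For DNAJB6 the second probe set fell by 0.45, while 2 dimmer ones differed by -0.04 and 0.02. For HSPA9 the dimmest of 3 fell by 0.67 and the second differed by -0.24 without passing. CCT6A, PDIA3 and PDIA4 were lower on the brightest probe set without passing, and further probe sets fell: 2 of CCT6A by 0.39 and 0.35, 1 of PDIA3 by 0.49 and 1 of PDIA4 by 0.38, while the dimmest ones of PDIA3 and PDIA4 differed by -0.08 and -0.03. The PDIA3 call held without any single array. That of CCT6A at 0.39 ended without SSEA1+ replicate 2, 3 or 5 or SSEA1- replicate 1 or 5, and that at 0.35 (adjusted p = 0.0499) held only without SSEA1- replicate 3. The PDIA4 call (adjusted p = 0.0412) held only without SSEA1+ replicate 4 or SSEA1- replicate 2, and ended after repeated quantile normalization at 0.0506 and after cyclic loess at 0.0589.

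Other genes disagreed between probe sets. For DNAJA1 the second probe set rose by 0.30, at 2.48 ± 0.06 in SSEA1+ and 2.18 ± 0.12 in SSEA1-, and for HSPA8 the fourth rose by 0.58, at 2.50 ± 0.22 in SSEA1+ and 1.92 ± 0.23 in SSEA1- (SD, n = 5 each), while the brightest of each read lower. The HSPA8 call held without any single array, and that of DNAJA1 ended without SSEA1+ replicate 1, 2 or 5 or SSEA1- replicate 1, 3 or 4. Another 2 probe sets of HSPA8 differed by 0.20 and 0.25 without passing. DNAJC14 differed by -0.01 on its brightest probe set and fell by 0.42 on the other (adjusted p = 0.0453), a call that held only without SSEA1+ replicate 5 and ended after repeated quantile normalization at 0.0512. CANX gave 0.04, -0.16, -0.21, -0.01 and 0.03 on its 5 further probe sets, the negative ones with the sign of the brightest and none passing. Those at -0.01 and 0.03 averaged 0.59 and 0.41 over the 10 arrays, near the background of 0.352. HSPB6 gave 0.04 on its second probe set, at 0.76 in SSEA1+ and 0.72 in SSEA1-. Which transcript ends these probe sets bind was not analysed here, so the values of such genes hold for the probe set named.

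**Figure D5:**
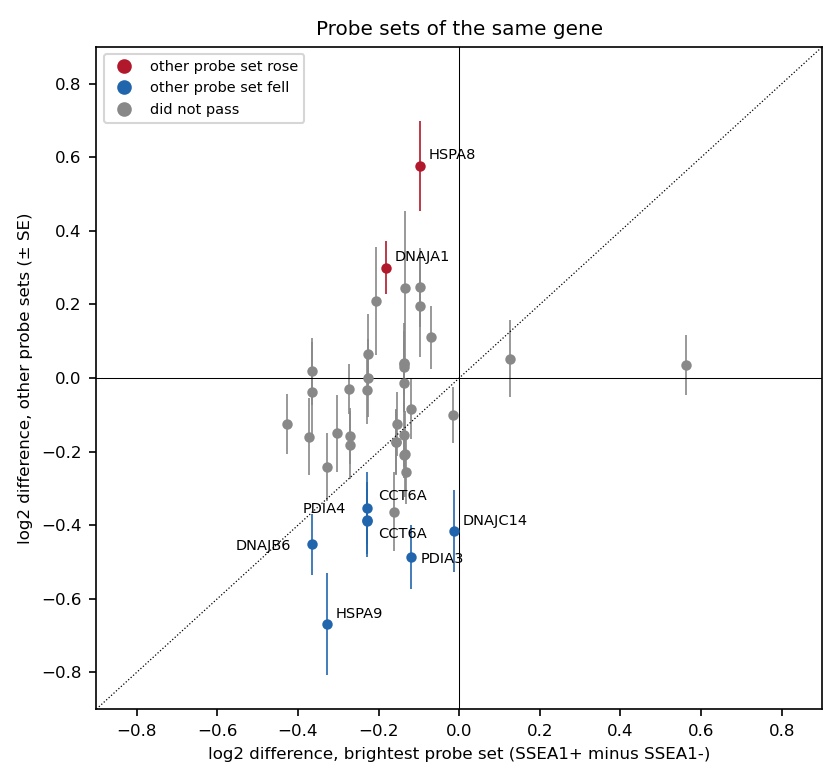
Log2 difference (SSEA1+ minus SSEA1-) of each of the 42 further probe sets, with its standard error, against the difference of the same gene's brightest probe set; the dotted line marks equality. Of the 9 labelled ones that passed, 7 lie in the lower left (fell, blue), whereas those of HSPA8 and DNAJA1 lie above 0 (rose, red); the points of PDIA4 and the lower one of CCT6A coincide.

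Of 91 other folding genes listed by role, 55 were measured, of which 2 rose and 6 fell in limma. These are 3.64% and 10.9%, beside the same 3.21% and 4.18% of all genes. In the HSP90 family HSP90AA1, the inducible cytosolic form, read 9.72 ± 0.04 in SSEA1+ and 9.95 ± 0.05 in SSEA1- (SD, n = 5 each) and fell by 0.23 ± 0.06 (SE, adjusted p = 0.0365), while the constitutive HSP90AB1 read 9.07 ± 0.13 in SSEA1+ and 9.10 ± 0.06 in SSEA1- without passing. HSP90B1 (GRP94) of the ER differed by -0.31 ± 0.11 (SE, adjusted p = 0.102, or 0.0479 with the block), and TRAP1 of mitochondria by 0.11 ± 0.07 (SE). HSP90AA1 lost its call in 8 of 10 leave-outs, all but those of SSEA1+ replicate 4 and SSEA1- replicate 2.

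Of the heat shock factors, HSF2 fell by 0.38 ± 0.07 (SE, adjusted p = 0.0081 in limma), whereas HSF1, the main inducer of heat shock genes, differed by 0.18 ± 0.09 (SE, adjusted p = 0.281). PFDN6, a subunit of prefoldin, which brings actin and tubulin to CCT, rose by 0.57 ± 0.11 (SE, adjusted p = 0.00972), and PDRG1, a prefoldin-like protein, fell by 0.33 ± 0.08 (SE, adjusted p = 0.0252), while PFDN1, PFDN4, PFDN5 and VBP1 did not pass. BAG6, which guards tail-anchored and misplaced membrane proteins, rose by 0.46 ± 0.10 (SE, adjusted p = 0.0149). CRELD2, an ER stress-inducible protein, ERLEC1, a lectin of ER-associated degradation, and TOMM70, an import receptor that takes clients from HSP70 and HSP90, fell by 0.33, 0.30 and 0.39 (adjusted p = 0.0128, 0.0272 and 0.0424 in limma). Leaving out 1 array ended no call of HSF2, PFDN6, BAG6 or CRELD2. That of ERLEC1 ended without SSEA1+ replicate 1, 3 or 5 or SSEA1- replicate 1 or 3, and that of PDRG1 without SSEA1+ replicate 1 or 2 or SSEA1- replicate 3, 4 or 5. The call of TOMM70 held only without SSEA1+ replicate 3 or 4, and ended after repeated quantile normalization at 0.075 and after cyclic loess at 0.0591.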

How the data were processed

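Gene expression was measured on 10 arrays, 5 SSEA1+ and 5 SSEA1- fractions. The authors deposited log2 signals, 1 per probe set and array; the submitters' processing notes name RMA, without a version or a background setting. Between 4.55% and 8.16% of values per array lie below 0, array medians run from 1.15 to 1.19, and nothing was normalized again. Depth has no meaning for arrays, and their number limits the precision.

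Probe sets were named through the platform annotation, where 10099 of 24123 have 1 symbol; 9989 matched a RefSeq gene table (Sscrofa11.1, names only) and no symbol changed. Groups and replicate numbers come from the sample titles. The background level is the 95th percentile over 23 control probe sets whose target sequence should be missing. SSEA1+ was set against SSEA1- with lmFit and eBayes (limma 3.58.1, R 4.3.3), fitted to every probe set with the 188 controls kept in, with Benjamini-Hochberg adjustment and a threshold of 0.05; the same code was tested on simulated data. The poly-A level was compared by an exact permutation test over 252 assignments, without pairing.

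For equally numbered arrays, deviations from the group mean had correlations of 0.212, 0.58, 0.353, 0.122 and 0.235 (replicates 1 to 5). The series text also ties the numbers to biological replicates giving both fractions, so the numbers were taken as pairs. The test above left this pairing out, and the block, given as an alternative, used it. Members given with values were those past the threshold, the 3 of highest signal (a rule for naming, not a ranking of levels) and the 3 most different of each compartment, the CCT subunits and a fixed set of core genes. FKBP15, HSPA2, HSPA4, HSPA6, HSPA14, HSPBP1, HSPB1, HSPB2, HSPB3, HSPB8, HSPB11, DNAJC3, DNAJC6, DNAJC14, DNAJC24, PPIG, FKBP2, FKBP6, FKBP10 and FKBP14, and HSF1, PFDN1, PFDN4, PFDN5 and VBP1, were added after their values were seen. The members and lists were chosen with earlier results of these data known. Alternatives were the block, 2 further scalings, trended and robust variances, a filter on level, averaging a gene's probe sets, a fit without controls, the poly-A covariate with and without the block, and leaving out each array. No raw array files were used, so other background corrections were not tried.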

Additional observations from a re-analysis of the deposited data

Results flagged for a closer look

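In 4 of the 72 sets of 5 arrays examined, those of the 36 members named by rule, 1 array stood apart from the other four by more than 0.71 of the whole range. Chance alone flags about 1 in 20 such sets. CCT7 read 7.26 in SSEA1+ replicate 2, against 7.50 to 7.55 in the other SSEA1+ arrays. DNAJB9 read 6.35 in SSEA1+ replicate 2, against 5.85 to 5.98, and HSPA8 read 9.64 there, against 9.55 to 9.57. DNAJC11 read 3.21 in SSEA1- replicate 2, against 3.51 to 3.62 in the other SSEA1- arrays. All 4 values come from arrays with replicate number 2, 3 of them from the same SSEA1+ array.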

How the results depend on the processing

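Counts of rising and falling members, 2 and 5, became 6 and 12 with the replicate block and 3 and 8 with trended, robust variances. With the poly-A covariate, alone or with the block, both were 0 in limma. The share of all genes passing those fits was not counted, and the cause was not tested. Leaving out 1 array gave 1 to 2 rises and 2 to 13 falls, with 13 without SSEA1- replicate 2, 8 without SSEA1+ replicate 4, 3 without SSEA1- replicate 1 and 2 without SSEA1+ replicate 1, 2, 3 or 5 or SSEA1- replicate 3, 4 or 5. The rises were 1 without SSEA1+ replicate 1, 2 or 5 or SSEA1- replicate 1 or 5. The other folding genes had 2 rises and 6 falls. Their rises were 4 with the block and both scalings and 1 with the mean over probe sets. Their falls were 9 with the block, 8 with trended, robust variances, and 5 with both scalings and with the mean over probe sets. With the covariate, alone or with the block, both counts were 0. Leaving out 1 array gave 2 to 3 rises and 2 to 8 falls, with 2 without SSEA1+ replicate 1 or SSEA1- replicate 3. Median differences of -0.07 (cytosol and nucleus), -0.13 (ER) and -0.09 (mitochondria) moved to -0.15 and -0.08 for the first and second with the covariate, and to -0.17, -0.05 and -0.22 with covariate and block, while single leave-outs gave -0.10 to -0.06, -0.15 to -0.11 and -0.13 to -0.02, the last without SSEA1- replicate 5. HSPA9 changed sign with covariate and block, to 0.01 (adjusted p = 0.995). Over 36 named members and 19 alternatives, 615 of 684 comparisons kept their side of the threshold, 48 lost a call, 20 gained one and 1 is the reversal given; 32 of the 615 changed sign without a call on either side. Signal over background limits FKBP6, HSPA6 and HSPB3, which were above it on 0, 1 and 2 of 10 arrays.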
